A study of Mus musculus with 8 samples.

Results

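The Fc receptors for IgG, the receptors Trem1 and Trem2, and the adaptors and kinase that carry their signal form a set of 10 genes: Fcgr1, Fcgr2b, Fcgr3, Fcgr4, Fcgrt, Fcer1g, Tyrobp, Trem2, Trem1 and Syk. They were taken by gene name from the non-control probes of the arrays, and all of their probes were used. The set has 11 of the 55681 probes on the array and 10 of the 19161 genes tested. Of these 19161 entries 13384 carry a gene symbol, and every share of all genes below is over the 19161. Of the genes, 9 carried the same name in the files. Syk appeared under its older name Sykb, was matched by its RefSeq accession, and has 2 probes.

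The series sought genes that respond to small RNAs cut from the Y RNAs, a family of short noncoding RNAs, in bone marrow-derived macrophages. The donors were male C57BL/6J mice, and such macrophages are grown in culture from marrow precursors. Cells of 4 mice were each transfected with a control siRNA or with an siRNA aimed at the terminal loop of Y RNA molecules, which gives 2 groups of 4 samples. Each sample went on its own 1-colour Agilent array, and the replicate numbers 1 to 4 are used as the mice. No allele or other treatment is stated for either group. Not given in the sources used here are the siRNA sequences, the dose, the time after transfection and the age of the mice.

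Activating Fc receptors bind IgG on particles or immune complexes and do not signal alone. In mouse macrophages Fcgr1, Fcgr3 and Fcgr4 pair with the FcR gamma chain, encoded by Fcer1g, while Trem1 and Trem2 pair with the adaptor encoded by Tyrobp. Both adaptors hold an immunoreceptor tyrosine-based activation motif (ITAM), which Src-family kinases phosphorylate and to which Syk binds. Fcgr2b is the inhibitory Fc receptor and recruits phosphatases, and Fcgrt encodes the neonatal Fc receptor, which salvages IgG inside cells.

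A level here is the log2 processed signal of a probe after subtracting its array's 75th percentile of log2 signal, and a difference is the Y RNA siRNA minus the control. Levels of different probes are not compared, because probes bind with unequal strength. A probe is well above background when the scanner software marks its signal so against the local background. All 11 probes of the set were well above background on all 8 arrays, and 0 spots were saturated.

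The measured stretches of 3 genes are given here. They are 60-base probes that lie in coding sequence, in the order ITAM adaptor tail (Tyrobp), second immunoglobulin-like domain (Fcgr3) and the domain next to the membrane (Fcgrt). This placing comes from general knowledge of the proteins and was not read from an annotation. Binding of other transcripts to these probes, such as those of other Fc receptors to the Fcgr3 probe, was not tested. The Tyrobp probe maps to chr7:31200651-31202378 on the plus strand of mm9, 1728 bases for 60 letters, so it crosses an exon junction. The Fcgr3 probe maps to chr1:172984129-172984188 and the Fcgrt probe to chr7:52350556-52350615, both on the minus strand.
Tyrobp: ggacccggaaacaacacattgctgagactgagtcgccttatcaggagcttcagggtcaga
Fcgr3: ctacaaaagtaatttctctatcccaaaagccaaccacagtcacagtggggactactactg
Fcgrt: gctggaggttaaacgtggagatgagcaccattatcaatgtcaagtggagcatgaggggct

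For Fcgr2b and Fcgr4, whose differences are described most fully, the first 30 of 60 probe bases are given. The Fcgr2b probe lies at chr1:172890988-172891047 on the minus strand and the Fcgr4 probe at chr1:172959738-172959797 on the plus strand of mm9.
Fcgr2b: acttctgtgagtcctgaaaccaacagacac
Fcgr4: ccaagaagcgattcttcagaattttacact

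The other probes lie at chr3:96086839-96086898 (Fcgr1), chr1:173159794-173159853 (Fcer1g), chr17:48491537-48491596 (Trem2), chr17:48385849-48385908 (Trem1) and chr13:52744088-52744147 (Syk). The Trem1 probe holds 12 tandem copies of GTT, which fill 36 of its 60 bases. Binding of other transcripts to this repeat was not tested. Which part of an exon these probes lie in was not analysed here.

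Promoter letters were read because several of these genes are macrophage genes, and PU.1 (encoded by Spi1), a macrophage factor of the ETS family, binds sites around the letters GGAA. The letters GAGGAAG were searched on both strands in the 250 bases before the start. They were present for Fcgr1, Fcgr3, Fcgr4 and Trem2, which is 4 of the 9 genes with an entry, against 10.66% of all 32536 promoters. The units differ: the 9 genes have 11 promoters and a gene counted if any matched, while shares over all are per distinct promoter. The letters TTCNNNGAA, a STAT-type palindrome, were present for Fcgr1 and Trem1, against 7.041% of all promoters. Matches of the 2 motifs did not overlap in any of these promoters, though the TTCCCAGAA of Fcgr1 itself holds GGAA on the other strand. A match describes letters only. The 120 bases before the start of the 4 genes, from RefSeq on GRCm38.p6 and in the gene's direction, are shown with the matched letters in capitals. GAGGAAG stands there as CTTCCTC on the gene's strand. Coordinates are chr3:96293970-96294089 minus (Fcgr1), chr1:171059395-171059514 minus (Fcgr3, the later of its 2 starts), chr1:171018806-171018925 plus (Fcgr4) and chr17:48346281-48346400 plus (Trem2).
Fcgr1: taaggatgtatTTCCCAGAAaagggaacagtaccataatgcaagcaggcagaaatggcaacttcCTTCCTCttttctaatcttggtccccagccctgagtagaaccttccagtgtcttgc
Fcgr3: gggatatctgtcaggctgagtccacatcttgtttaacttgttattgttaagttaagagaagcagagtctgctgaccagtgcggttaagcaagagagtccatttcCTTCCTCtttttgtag
Fcgr4: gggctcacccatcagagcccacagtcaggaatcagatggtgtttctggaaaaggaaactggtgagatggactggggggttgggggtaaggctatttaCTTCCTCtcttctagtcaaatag
Trem2: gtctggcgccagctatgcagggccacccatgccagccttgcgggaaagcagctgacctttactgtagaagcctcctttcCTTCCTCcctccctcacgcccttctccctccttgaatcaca

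The CTTCCTC of Fcgr3 lies 16 to 10 bases before the start shown. It lies 23 to 17 before the start of Fcgr4, 41 to 35 before that of Trem2 and 56 to 50 before that of Fcgr1. These 4 genes did not share a direction in the siRNA comparison, as the values below show. No promoter entry was matched for Tyrobp.

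Over all arrays, 48.7% to 50.7% of the spots were well above background, and the arrays correlated with one another at r of 0.989 to 0.997. RNA integrity numbers were 10 in 7 samples, and 8 in control replicate 4. No probe is named for a Y RNA, so the targeted RNAs were not checked. On the slide, columns 1 and 3 held the Y RNA siRNA and columns 2 and 4 the controls: column cannot be told apart from group. All 9 macrophage markers (among them Csf1r, Adgre1 and Spi1) were well above background on all 8 arrays, with summed levels, as multiples of the 75th percentile, of 1397 to 1631 in controls and 1375 to 1629 with the Y RNA siRNA. A smaller share of the markers of other cells was well above background on all arrays. For neutrophils 4 of 10 were (Elane, Camp, S100a8 and S100a9), with sums of 4.16 to 6.32 against 4.55 to 6.07 and Ly6g on no array. For mast cells and basophils 2 of 10 were (Kit and Tpsb2), with sums of 0.762 to 1.04 against 0.780 to 1.46. Fcer1a, Ms4a2 and Cpa3 were on no array. For NK cells 2 of 7 were (Klra8 and Prf1), with sums of 1.77 to 2.67 against 2.01 to 3.31 and Ncr1 on no array. For B cells 3 of 6 were (Cd79a, Cd22 and Fcer2a), with sums of 1.29 to 1.48 against 1.35 to 1.66 and Ms4a1 on no array. For T cells 2 of 5 were (Cd3e and Cd4), with sums of 3.19 to 4.56 against 3.60 to 4.14 and Cd3d on no array. For fibroblasts 3 of 6 were (Col1a1, Col1a2 and Dcn), with sums of 0.804 to 2.68 against 1.08 to 2.92 and Pdgfra on no array. Of 6 dendritic cell markers, only Siglech was well above background on all arrays, and 4 were on no array (among them Flt3 and Xcr1). The list sum was 88.9 to 96.2 against 82.6 to 96.6. Most of it is Siglech (mean level 6.54 in controls, 6.47 with the Y RNA siRNA), which is also listed below among receptors of the 2 adaptors. Sums of different lists come from different probes and are not compared. In bulk RNA, fewer cells of a type and less RNA per cell cannot be told apart.

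The siRNA comparison asks whether transfection against the Y RNAs altered these genes. In limma's test over all genes, 0 of the 10 members passed an adjusted p of 0.05, as did 0% of all 19161 genes. The member with the largest difference was Fcgr2b, higher by 1.26-fold under the Y RNA siRNA; the other 9 differed by at most 1.10-fold in either direction. At an unadjusted p of 0.05, 1 member passed (Fcgr2b), against 3.41% of all genes. The 95% interval of the difference lay within 1.5-fold either way for all 10 members and for 84.7% of all genes. All genes here include those well above background on as few as 4 arrays, while the members were so on all 8. By sign, 6 members were higher and 4 lower, with a median difference of 0.04 against 0.0045 over all genes, of which 52.2% were higher. Centring each array on its median instead gave 8 members and 65.5% of all genes higher, with a median over all genes of 0.034. The split of the members also rested on single samples: 3 were higher without control replicate 3 and 4 without mouse 2, where the median over the members was -0.0116 and -0.0204.

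**Figure D1:**
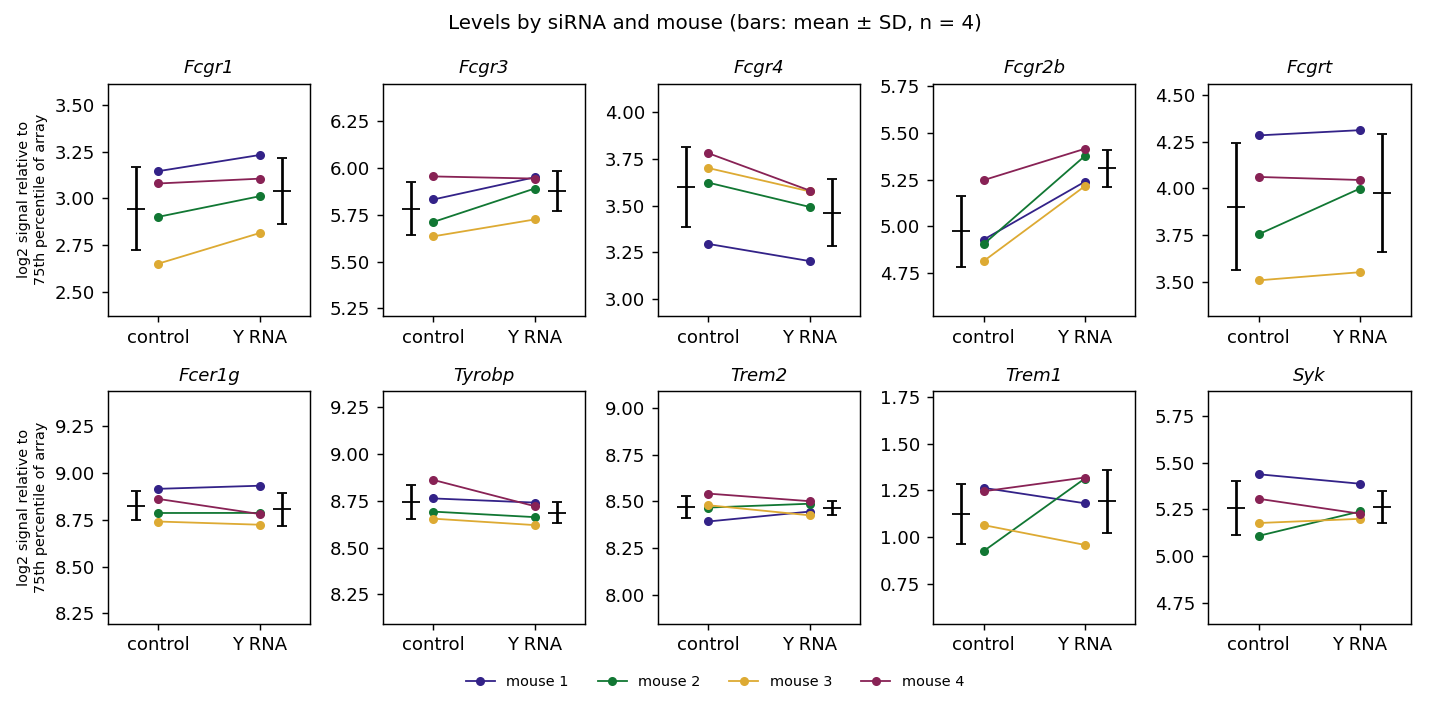
Level of each member on each array, as log2 signal relative to its array's 75th percentile, with the 4 control and 4 Y RNA siRNA samples as points joined by mouse, on separate axes per gene. For Fcgr2b the Y RNA siRNA points lie above 3 of the 4 controls, and control replicate 4 (5.25) sits among them.

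The inhibitory receptor gene Fcgr2b had control levels of 4.93, 4.90, 4.81 and 5.25 in mice 1 to 4, and 5.24, 5.38, 5.22 and 5.41 with the Y RNA siRNA. The groups overlapped only through control replicate 4, which lay above Y RNA siRNA replicates 1 and 3. Mouse 4 was also the highest with the Y RNA siRNA. Control replicate 4 is the sample of RNA integrity 8, and the part of RNA integrity in its level was not tested. The means were 4.97 ± 0.19 and 5.31 ± 0.10 (SD, n = 4 each), a difference of 0.34 (SE 0.10, 95% interval 0.10 to 0.57). Every mouse had the higher level with the Y RNA siRNA, by 0.31, 0.47, 0.40 and 0.17. The limma adjusted p was 1.00, with an unadjusted p of 0.0105 that ranked it 168th of all genes. With 1 array left out, the difference ranged from 0.28 (without control replicate 3) to 0.43 (without control replicate 4).

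Fcgr2b was printed at 10 spots on each array, which gives a view of technical error. The software marked 1 spot as an outlier on every array, so 9 were averaged. Their SD on an array was 0.0334 to 0.0612, and the difference between groups was 0.296 to 0.365 over the 9 spots. In 36 of 36 comparisons of a spot within a mouse the Y RNA siRNA was higher. The spots share the same RNA, so they measure the arrays and not the mice.

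**Figure D2:**
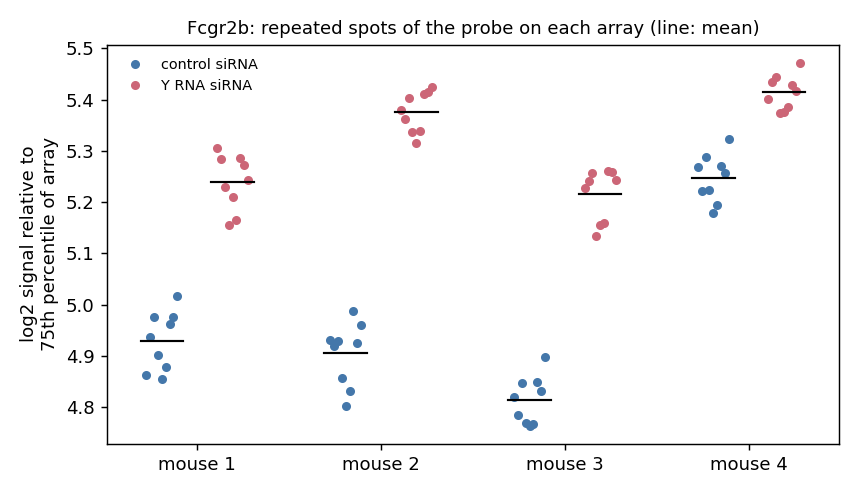
Log2 level of Fcgr2b at each of its 9 used spots, by array, with the arrays of each mouse side by side, relative to its array's 75th percentile. Spots of 1 array lie close together (SD 0.0334 to 0.0612), and each mouse's Y RNA siRNA spots sit above its control spots.

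None of the 3 activating receptor genes passed the test. Fcgr4, an activating receptor of myeloid cells, had control levels of 3.30, 3.62, 3.70 and 3.78, and 3.20, 3.49, 3.58 and 3.58 with the Y RNA siRNA. The groups overlapped, mouse 1 was low in both, and every mouse had the lower level with the Y RNA siRNA. The means of 3.60 ± 0.21 and 3.46 ± 0.18 (SD, n = 4) differed by -0.14 (SE 0.13, 95% interval -0.43 to 0.16), which is 1.10-fold lower, limma adjusted p 1.00. With single arrays of mouse 1 left out it was -0.238 (control) and -0.0498 (Y RNA siRNA), and without control replicate 4 it was -0.0762.

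Fcgr1, the high-affinity receptor for IgG, had differences of the opposite sign. Its control levels were 3.15, 2.90, 2.65 and 3.08, and those with the Y RNA siRNA were 3.23, 3.01, 2.82 and 3.11. Each mouse was higher with the Y RNA siRNA, by 0.03 to 0.16. The difference of 0.10 (SE 0.13, 95% interval -0.20 to 0.39) did not pass, limma adjusted p 1.00. This SE includes the spread between mice. With mice as fixed blocks, a fit described below, the SE was 0.04 and the interval -0.009 to 0.20 (limma adjusted p 0.565).

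Fcgr3 encodes the low-affinity activating receptor. It was measured at 5.83, 5.71, 5.63 and 5.95 in controls and 5.95, 5.89, 5.72 and 5.94 with the Y RNA siRNA. It was higher in 3 of 4 mice and nearly level in mouse 4 (-0.01). The difference was 0.09 (SE 0.09, 95% interval -0.11 to 0.29).

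Fcgrt varied most between mice. Its control levels were 4.28, 3.75, 3.51 and 4.06, and 4.31, 4.00, 3.55 and 4.05 with the Y RNA siRNA, so both groups spanned nearly the same range. The difference was 0.07 (SE 0.21, 95% interval -0.40 to 0.55), and this SE includes the spread between mice. With mice as fixed blocks the SE was 0.06 and the interval -0.07 to 0.22. Most of the difference came from mouse 2, with 0.24.

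Fcer1g, Tyrobp and Trem2 had the narrowest ranges between mice of the 10 members. Their probes also had the highest processed signals of the members, 177006 to 283906, and the part of brightness in the narrow ranges was not tested. Fcer1g, which carries the FcR gamma chain, was at 8.91, 8.79, 8.74 and 8.86 in controls and 8.93, 8.79, 8.72 and 8.78 with the Y RNA siRNA. The groups overlapped almost entirely, with a difference of -0.02 (SE 0.07, 95% interval -0.17 to 0.13). Its sign changes with the scaling of the arrays (0.01 with the deposited values), so no direction is given for it.

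Tyrobp, the adaptor of Trem1 and Trem2, was at 8.76, 8.69, 8.65 and 8.86 in controls and 8.74, 8.66, 8.62 and 8.72 with the Y RNA siRNA. It was lower in 4 of 4 mice, by 0.02 to 0.14, and its groups overlapped. The difference was -0.06 (SE 0.06, 95% interval -0.20 to 0.09). The sign was negative under every alternative run, and none passed the threshold.

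Trem2, a lipid- and lipoprotein-sensing receptor, was at 8.39, 8.47, 8.48 and 8.54 in controls and 8.45, 8.49, 8.43 and 8.50 with the Y RNA siRNA. Its groups overlapped and its difference was -0.0053 (SE 0.05, 95% interval -0.12 to 0.11). Its sign also changes with the scaling.

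Trem1, an amplifier of inflammatory signals, was at 1.26, 0.93, 1.07 and 1.25 in controls and 1.18, 1.31, 0.96 and 1.32 with the Y RNA siRNA. It was higher in 2 mice and lower in 2, and mouse 2 gave a difference of 0.39, the widest apart. The mean difference was 0.07 (SE 0.11, 95% interval -0.18 to 0.32).

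Syk, the kinase both adaptors recruit, was at 5.44, 5.11, 5.18 and 5.31 in controls and 5.39, 5.24, 5.20 and 5.23 with the Y RNA siRNA. The means were 5.26 in both groups, with a difference of 0.0057 (SE 0.08, 95% interval -0.19 to 0.20). Its second probe was dim, with processed signals of 99.6 to 124, and gave a difference of 0.05.

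**Figure D3:**
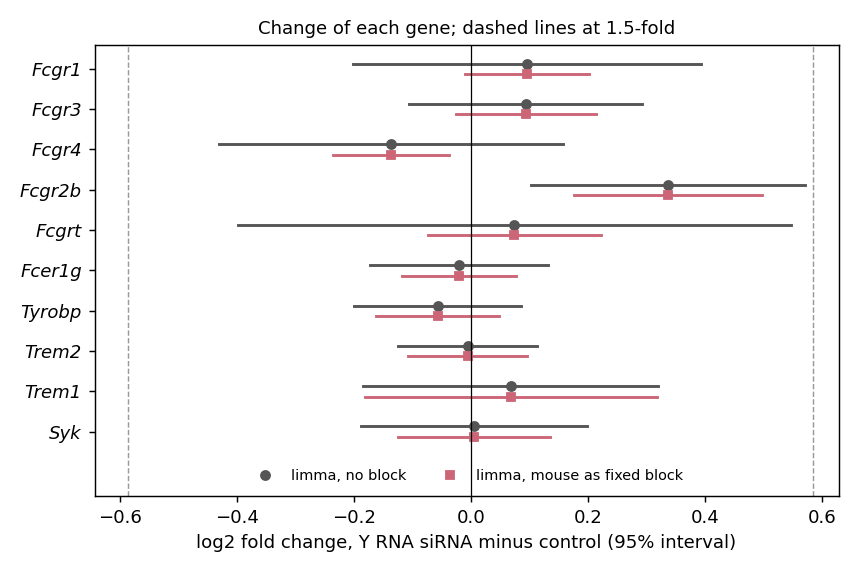
Difference of each member between the groups, as log2 fold change (Y RNA siRNA minus control) with 95% intervals, from the fit without a block and from that with mice as fixed blocks, and dashed lines at 1.5-fold. The interval of Fcgr2b lies above 0 in both fits, that of Fcgr4 lies below 0 only with the block, and no interval crosses 1.5-fold.

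The 2 samples of a mouse deviated together (correlations of 0.618, 0.154, 0.582 and 0.285 over genes after subtracting group means), so the mouse was also fitted as a block. In the fit with a fixed mouse effect, 0 members and 0% of genes passed an adjusted p of 0.05, and the members passing an unadjusted p of 0.05 were Fcgr2b and Fcgr4, against 9.32% of all genes. Fcgr2b had an interval of 0.18 to 0.50 (limma adjusted p 0.312), and Fcgr4 one of -0.24 to -0.04 (limma adjusted p 0.433). With the mouse as a random block 0 members and 0.0574% of genes passed, and Fcgr2b had a limma adjusted p of 0.164.

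The same sign in all 4 mice was seen in 4 of 10 members (Fcgr1 and Fcgr2b higher, Fcgr4 and Tyrobp lower), against 19.3% of all genes (10.4% higher and 8.84% lower). For 0 members were the groups free of overlap, against 2.42% of all genes (1.34% higher and 1.08% lower).

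Levels were also compared between the 4 mice. The range between mice, over the means of each mouse's 2 arrays, had a median of 0.270 over the members and 0.254 over all genes. In limma's moderated F-test between mice, 2 members passed an adjusted p of 0.05, Fcgrt (adjusted p 0.0392) and Fcgr4 (0.0473), and 4.68% of all genes did. At an unadjusted p of 0.05, 4 members passed (Fcgr1, Fcgr3, Fcgr4 and Fcgrt), against 29.8% of all genes. Fcgr1 lay just outside the adjusted threshold (0.0518), and every other member was at 0.149 or more. Neither call holds under every scaling: with median centring they were 0.0561 for Fcgrt and 0.0658 for Fcgr4.

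Fcgrt had mouse means of 4.30, 3.88, 3.53 and 4.05, a range of 0.77 or 1.70-fold. Mouse 1 was highest and mouse 3 lowest, in both siRNA groups. Fcgr4 had mouse means of 3.25, 3.56, 3.64 and 3.68, a range of 0.43 or 1.35-fold. Here mouse 1 was lowest in both groups. Fcgr1 had means of 3.19, 2.96, 2.73 and 3.09, a range of 0.46 or 1.37-fold. Without mouse 1, the adjusted p was 0.318 for Fcgrt, 0.496 for Fcgr4 and 0.327 for Fcgr1. Without mouse 3 it was 0.234 for Fcgrt and 0.148 for Fcgr4, without mouse 4 it was 0.0665 and 0.0764, and without mouse 2 it was 0.0278 and 0.0541.

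Mouse 3 had the lowest mean in 7 of 10 members, while it was lowest in 32.9% of all genes. Mouse 4 was highest in 6 members and in 23.6% of all genes, and mouse 1 was highest in the other 4. Mouse 1 was lowest for Fcgr4 and Trem2, and mouse 2 for Syk. The mouse ranges of the remaining members were 0.32 for Fcgr2b, 0.27 for Fcgr3, 0.27 for Trem1, 0.24 for Syk, 0.19 for Fcer1g, 0.15 for Tyrobp and 0.10 for Trem2. Slide row 1 held mice 1 and 2, and row 2 held the others. The 2 arrays of a mouse sat side by side. They were in columns 3 and 4 for mice 1 and 3, and in columns 1 and 2 for mice 2 and 4. In these differences, mouse cannot be told apart from place on the slide, and the part of the row was not tested.

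**Figure D4:**
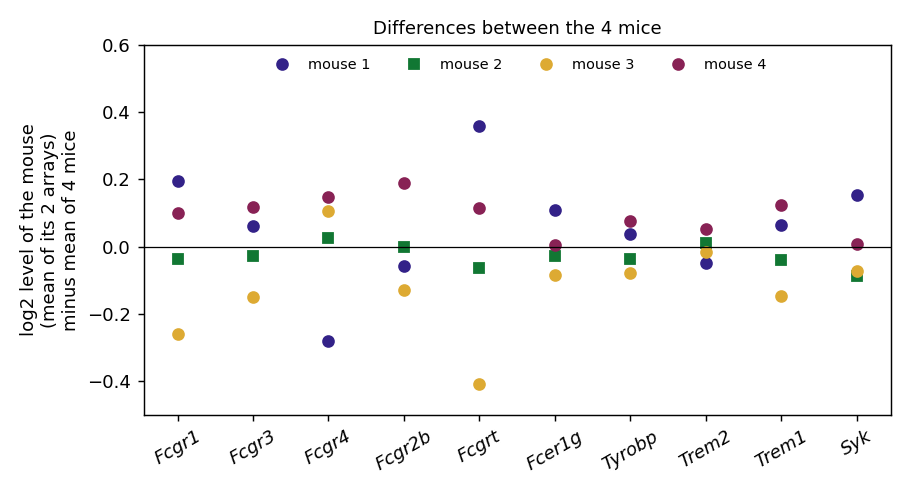
Mean level of each member in mice 1 to 4, as the mean of both arrays relative to the mean of all 4 mice, in log2 units. Fcgrt spans 0.77 and Fcgr1 0.46, with mouse 3 lowest in both, while Trem2 spans 0.10.

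Genes around the set were described by 6 lists, and 0 of their members passed the siRNA threshold in any of the 3 fits. Of 13 tested receptors that pair with FcR gamma or the Tyrobp adaptor, 5 were higher and 8 lower, with a median of -0.01. Clec4e (Mincle, an FcR gamma-coupled receptor for glycolipids) was at 3.81 ± 0.35 and 4.16 ± 0.29 (SD, n = 4), a difference of 0.36 (SE 0.20), higher in 4 of 4 mice, limma adjusted p 1.00. Sirpb1a differed by -0.18 and Siglech by -0.08.

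Of 5 other tested adaptors, which carry an ITAM or a YxNM motif, 3 were higher and 2 lower. Hcst, a YxNM adaptor that pairs with the receptor Klrk1, differed by 0.06, and Cd3e, a T cell receptor chain, by -0.15. Cd79b, a B cell receptor chain, differed by 0.58 (SE 0.42), of which mouse 4 gave 1.85.

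Kinases, adaptors and effectors downstream of ITAMs were split evenly, with 15 of 30 tested genes higher and 15 lower and a median of 0.0033. Fyn, a Src-family kinase, differed by 0.29 (SE 0.19) and was higher in 4 of 4 mice. Lat2, an adaptor, differed by 0.12 and Gab2, a docking protein, by -0.19.

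Of 21 inhibitory receptors and negative regulators, 13 were higher and 8 lower, and 2 had groups that did not overlap, both lower, against 1.08% of all genes lower with no overlap. Cbl, an E3 ubiquitin ligase that limits Syk, was at 0.62 ± 0.10 and 0.41 ± 0.09 (SD, n = 4), a difference of -0.21 (SE 0.07, limma adjusted p 1.00). Ptpn6, the phosphatase SHP-1 that inhibitory receptors recruit, was at 5.48 ± 0.04 and 5.38 ± 0.04 (SD, n = 4), a difference of -0.10 (SE 0.05). Cd200r1, an inhibitory receptor, differed by 0.18 (SE 0.08), higher in 4 of 4 mice.

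The list of other immunoglobulin-binding receptors, which also holds B2m, the light chain of the Fcgrt receptor, had 3 genes higher and 5 lower among 8 tested. B2m, counted among the higher, differed by 0.0058. Fcrla, a B cell gene, was dim, at -3.62 ± 0.09 and -4.22 ± 0.38 (SD, n = 4), with a difference of -0.59 (limma adjusted p 1.00). Its groups did not overlap, which held for 1 of the 8 genes, against 2.42% of all genes in either direction. Trim21, a cytosolic antibody receptor, differed by 0.09 and Pigr by -0.12. For Trem2 shedding and processing, 6 of 7 genes were higher, with a median of 0.05. Ncstn, a subunit of gamma-secretase, differed by 0.08 and Adam10, a sheddase, by 0.05.

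**Figure D5:**
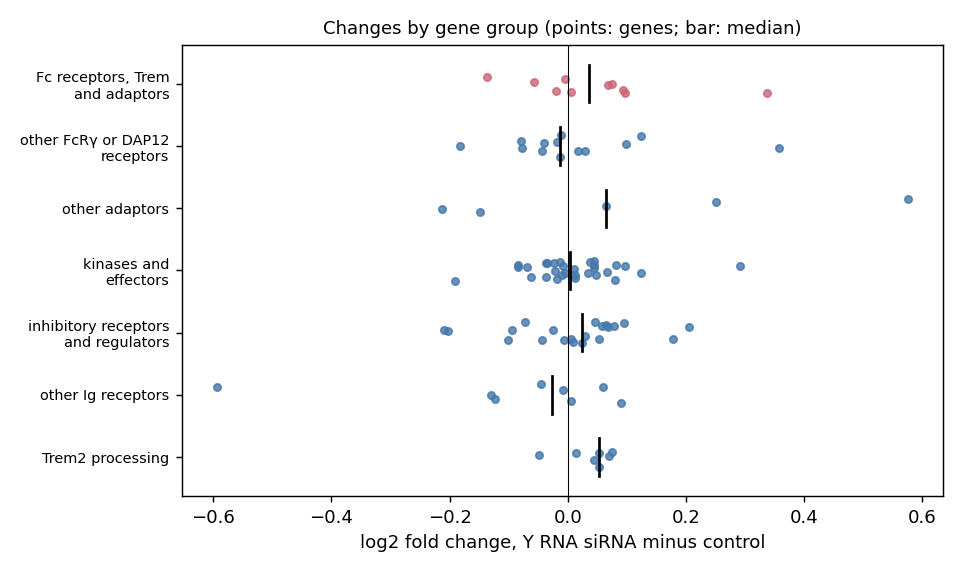
Log2 difference (Y RNA siRNA minus control) of each tested gene of the 10 members and of the 6 pathway lists, with a line at each list's median. The lists centre near 0, and Fcgr2b (0.34), Clec4e (0.36), Cd79b (0.58) and Fcrla (-0.59) stand at the edges.

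The genes most like Fcer1g, Tyrobp and Trem2 were sought over all 8 arrays among 13349 genes with a symbol, as the root mean square difference of levels centred on each gene's mean. For Fcer1g they were Lztr1 (0.0130), Eif2ak1 (0.0154) and Mtmr6 (0.0164), against a median of 0.134 over all genes. For Tyrobp they were Pepd (0.0221), Tmem37 (0.0234) and Prxl2b (0.0242), against a median of 0.131. For Trem2 they were Myo18b (0.0223), Tnip2 (0.0239) and Nle1 (0.0240), against a median of 0.120. A gene with the same level on every array would score 0.0729 against Fcer1g, 0.0709 against Tyrobp and 0.0433 against Trem2, since these genes vary little. The measures share the arrays and their scaling.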

How the data were processed

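Each deposited scanner file gives the intensity of every spot on array design 028005, read by Feature Extraction 10.7.3.1, per the file headers. The processed signal is a linear intensity, background-subtracted and without normalization between arrays, per the file headers. RNA (0.2 µg) was labelled with Cy3, per the labels. The deposited value table holds log2 values of the same arrays whose scaling is not stated. It was used as an alternative.

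Of 62976 spots, 3671 control spots and 185 to 234 outlier spots per array were left out. Levels are log2 processed signal minus the array's 75th percentile (9.04 to 9.34). Probes had to be well above background on 4 or more arrays (26820 kept), and the brightest probe stood for a gene. RefSeq (GRCm38.p6) named 26762 probes through the accession and 639 through a synonym, and the other 28280 kept the name in the file.

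The siRNA groups were tested with limma 3.58.1 (R 4.3.3), two-sided, with Benjamini-Hochberg adjustment over 19161 genes. Mice were compared with its moderated F-test after group. The design states 2 conditions on 4 mice. The script was tested on simulated data. The members and lists were chosen with earlier results of these data known. From each list, the 3 genes of smallest p were named, apart from 1 gene that is not reported here. The number of arrays limits the precision.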

Additional observations from a re-analysis of the deposited data

How the results depend on the processing

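In the siRNA comparison 0 members passed the threshold in each of the 31 alternatives run. Over all genes 0 passed without a block, 11 with the mouse as a random replicate block, 0 with it as a fixed replicate block, and 3 and 2 with the fixed block on normexp and on deposited values. The fixed and random blocks changed no call of a member. The blocked settings with other values and without a mouse were chosen after seeing the data. Fcgr2b was higher in every alternative, by 0.284 to 0.428, with an adjusted p of 0.164 to 1.00.

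The comparison of mice depended on processing: 897 genes passed, against 3291 with normexp, 1847 with deposited values, 1456 with array weights and 171 with no filter on dim probes, and 2 without mouse 1, 1214 without mouse 2, 156 without mouse 3 and 334 without mouse 4. Its 2 members became 3 with quantile normalization, normexp, deposited values, the all-8 filter and array weights, 1 with the mean of the kept probes, 0 with median centring or no filter, 1 without mouse 2 (Fcgrt) and 0 without mouse 1, 3 or 4.

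Signs near 0 turned. Fcer1g was 0.0013 with quantile normalization, 0.0093 with median centring and 0.0072 with deposited values. Trem2 was 0.0052, 0.024 and 0.0099 under those and 0.0026 with array weights. Syk was -0.014 with normexp. With a mouse left out, Trem1 ranged from -0.0382 to 0.126, Syk from -0.0359 to 0.0341 and Trem2 from -0.0246 to 0.0110 (0.00647 without mouse 4). With an array left out, Trem1 ranged from 0.0018 to 0.146, Syk ranged from -0.0440 to 0.0657, Trem2 from -0.0311 to 0.0185, Fcer1g from -0.0622 to 0.00965, Fcgr1 from -0.00129 to 0.172, Fcgrt from -0.0561 to 0.216, Fcgr4 from -0.238 to -0.0498, Fcgr3 from 0.0445 to 0.151 and Tyrobp from -0.0859 to -0.0170. The cause was not tested. The 4 arrays per group limit the precision.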
